A study of Mus musculus with 7 samples.

Results

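The genes described here build or switch on the motile cilia of ependymal cells, the epithelium that lines the brain ventricles. Of the 9 genes named for the set (Foxj1, Tekt1, Tekt4, Ccdc151, Ccdc153, Dynlrb2, Rsph1, Spag6 and Dnaic1), 6 were found on the bead array by their symbol in the platform annotation. Spag6 was reached through a synonym, since the annotation lists 2 probes under Spag6l, a gene for which RefSeq gives Spag6 as an older name, and it is called Spag6l below. Tekt4 and Ccdc153 have no named probe in that annotation and were not analysed here, so that 7 of 9 genes were measured, with 10 probes, among 16593 named genes on the array. The set was chosen by its gene names together with measured values of these same arrays, the Dusp8-deficient against control differences, in which Ccdc151 already stood out. The members' differences are therefore given as a description with no test.

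Motile cilia beat through an axoneme of doublet microtubules around a central pair. Rows of outer and inner dynein arms slide the doublets, a docking complex anchors the outer arms, and radial spokes carry signals from the central pair to the dyneins. Ependymal cilia on the wall of the third ventricle, which borders the arcuate nucleus, move cerebrospinal fluid, while the neighbouring tanycytes mostly lack such tufts of motile cilia. Foxj1 and the RFX transcription factors switch on the axonemal genes.

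RNA came from the arcuate nucleus of 4 Dusp8-deficient mice and of 3 control mice, all male C57BL/6J littermates of 40 weeks. Both groups moved from chow to a diet with 45% of its calories from fat at an age of 8 to 10 weeks and stayed on it for 30 weeks. Dusp8 encodes a phosphatase of MAP kinases, and the study asked how its loss acts on the hypothalamus. The labels do not say how the gene was disrupted or in which cells. The arrays carry the names ko_108, ko_125, ko_148 and ko_168 (Dusp8-deficient) and wt_136, wt_145 and wt_177 (control). Between 12295 and 13976 of 25697 probes were detected per array, that is, had a detection p below 0.05. The Dusp8 probe read 77 to 104 units of deposited signal in Dusp8-deficient arrays, against 540 to 624 units in control arrays. Array ko_108 stood apart from the rest, with a mean correlation of 0.911 with the other arrays, where the others had 0.922 to 0.942. Results that rest on it are given with and without it where both were computed.

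The start regions of the measured genes are shown first, because RFX factors bind a motif called the X-box that is known from ciliary promoters, and because the member with the widest genotype difference can then be set beside the others. RefSeq sequences of build GRCm38.p6 were at hand for 5 of the 7 measured genes. Each stretch runs from 80 bases before to 50 bases after the transcription start, and capitals mark the matches described below. Tekt1 has a further RefSeq start, whose window held no match and is not shown.
Ccdc151: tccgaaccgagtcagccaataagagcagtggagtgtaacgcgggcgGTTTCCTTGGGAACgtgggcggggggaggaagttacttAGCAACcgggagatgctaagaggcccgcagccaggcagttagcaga
Dynlrb2: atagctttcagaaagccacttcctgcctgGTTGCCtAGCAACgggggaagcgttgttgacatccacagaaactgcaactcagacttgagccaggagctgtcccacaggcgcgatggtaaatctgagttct
Dnaic1: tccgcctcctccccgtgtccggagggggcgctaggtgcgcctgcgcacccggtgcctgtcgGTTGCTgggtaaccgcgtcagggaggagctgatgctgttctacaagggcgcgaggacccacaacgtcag
Tekt1: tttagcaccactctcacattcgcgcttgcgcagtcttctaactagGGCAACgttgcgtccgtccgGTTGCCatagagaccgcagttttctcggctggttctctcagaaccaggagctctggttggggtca
Spag6l: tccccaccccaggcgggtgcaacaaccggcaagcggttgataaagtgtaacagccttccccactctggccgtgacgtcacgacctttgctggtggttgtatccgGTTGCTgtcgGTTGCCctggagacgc
These stretches are chr9:22002585-22002714 on the minus strand for Ccdc151, chr8:116504935-116505064 on the plus strand for Dynlrb2, chr4:41569714-41569843 on the plus strand for Dnaic1, chr11:72361833-72361962 on the minus strand for Tekt1 and chr16:16829314-16829443 on the minus strand for Spag6l.

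The short RFX forms GTTGCC and GTTGCT were searched on both strands (their reverse complements are GGCAAC and AGCAAC) in the RefSeq window from 250 bases before to 50 after the start. At least 1 of them lay in a window of each of the 5 measured genes with a RefSeq window, and of the unmeasured Tekt4 and Ccdc153, that is in 7 of 8 windows, with Tekt1 having 2. Over all 32851 windows of this length 25.1% held 1 of them, GTTGCC 12.5% and GTTGCT 14.8%. A looser paired form was also searched, GTTNCC followed after 0 to 3 bases by GGNAAC. It was found in Ccdc151 as GTTTCCTTGGGAAC, beginning 34 bases before the start, and in 0.804% of all windows. Neither side of that match is a short RFX form, so it is not called an X-box here. In Dynlrb2, GTTGCC and AGCAAC lay side by side from 51 bases before the start, and in the unmeasured Tekt4, GTTGCT and AGCAAC did from 36 bases before it. These pairs are made of short RFX forms on both sides. The looser form asks for GTTNCC and GGNAAC, so it did not count them, and its share does not cover such pairs. The forkhead forms TGTTTAC, in 3.65% of all windows, and TGTTTGT, in 6.61%, had no match in the windows of the set. These matches describe letters in a window and do not show binding.

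Ccdc151 was the member whose values differed most between the groups. It encodes a coiled-coil protein of the outer dynein arm docking complex, whose loss causes primary ciliary dyskinesia in humans. Its probe, ILMN_2987394, read 107, 120, 42 and 51 units in the Dusp8-deficient arrays ko_108, ko_125, ko_148 and ko_168, against 3, 7 and 35 units in the control arrays wt_136, wt_145 and wt_177. On this deposited scale the lowest Dusp8-deficient array lay above the highest control, and the groups did not overlap. Of the 9 tested member probes this 1 was separated on the deposited signal, where 4.37% of all tested probes were separated in either direction and 2.61% with the Dusp8-deficient arrays higher. After normalisation ko_148 and wt_177 changed places, at 5.76 and 5.79 log2 units, so that the groups overlapped. On the normalised scale 0 of the 9 member probes were separated, where 2.78% of all tested probes were with Dusp8-deficient arrays higher and 2.79% with them lower. The means were 6.50 ± 0.65 (SD, n = 4) in Dusp8-deficient arrays and 4.90 ± 0.78 (SD, n = 3) in controls. The log2 difference of Ccdc151 was 1.60 with a standard error of 0.42, a size that took part in the choice of the gene.

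Detection of the Ccdc151 probe held in 4 of 4 Dusp8-deficient arrays and in 1 of 3 controls (wt_177), so that its control level lies mostly at the background and the probe met the filter for testing through the Dusp8-deficient arrays. Its log2 difference was 1.39 without ko_108 and ran from 1.32 without wt_136 to 2.06 without wt_177. It depended on how values near the background were treated, at 0.95 with a larger offset of 50 and 3.03 with no further background correction. RefSeq places a predicted gene, Gm36414, over Ccdc151, Gm51867 and Gm34317 over Tekt1, Ubash3a over Rsph1, Rpl31-ps12 over Spag6l and Enho over Dnaic1. The probes' strands and positions are not known here, so RNA of these overlapping genes is not told apart from that of the members. A probe of Ubash3a was detected in none of the 7 arrays.

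**Figure D1:**
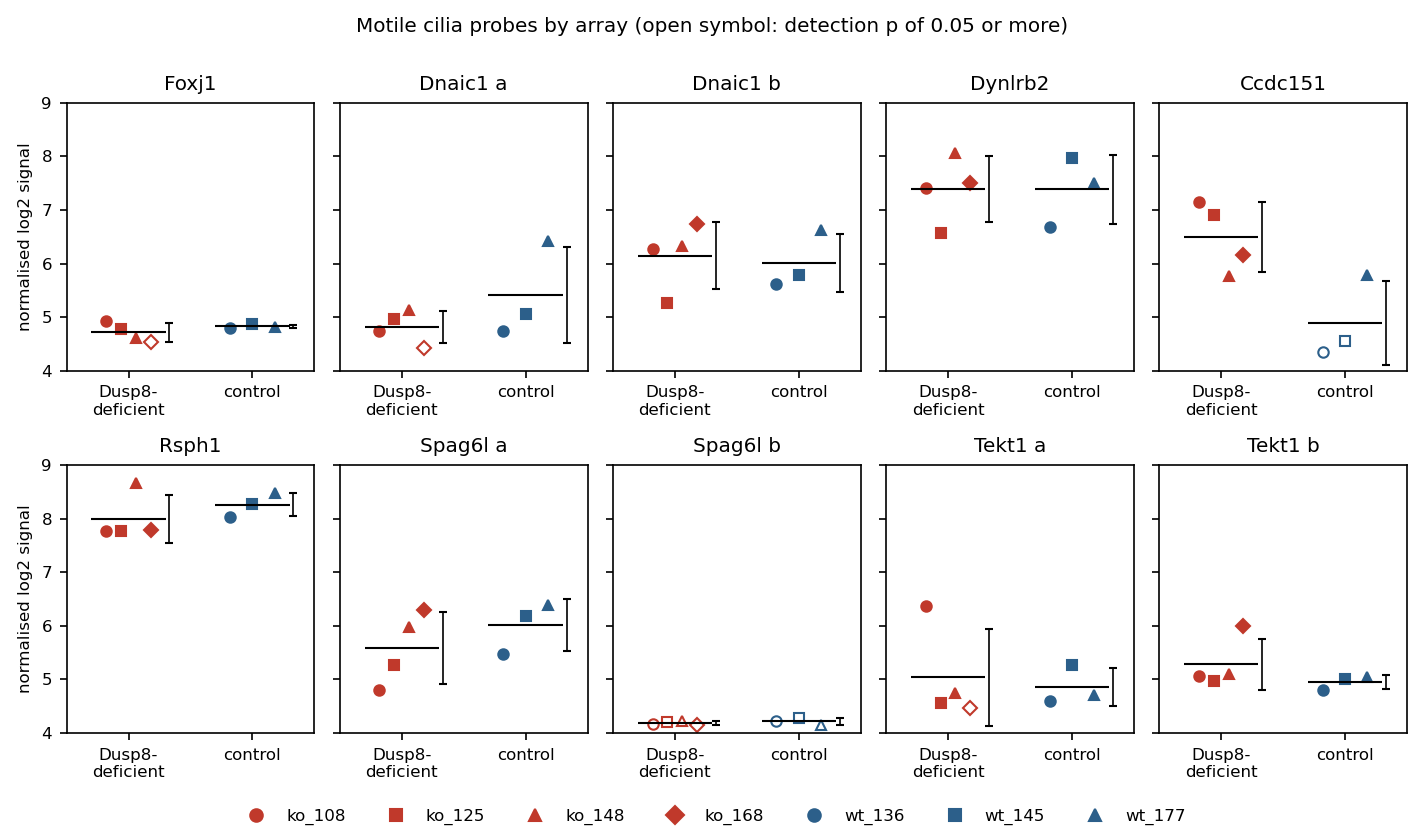
Normalised log2 signal (vertical axis, the same in all panels) of the 10 probes in each array, Dusp8-deficient to the left and control to the right of each panel. Horizontal lines are group means, bars 1 SD, open symbols arrays where the probe was not detected, and a and b tell apart probes of 1 gene (Dnaic1 a ILMN_2694884, b ILMN_2744879, Spag6l a ILMN_2855928, b ILMN_2855931, Tekt1 a ILMN_1239718, b ILMN_2700097). The groups overlap in every panel, least in Ccdc151, where ko_148 at 5.76 meets wt_177 at 5.79.

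None of the 9 tested member probes passed the threshold of an adjusted p of 0.05 in the limma fit across all probes, where 0.00711% of tested probes did, namely Dusp8 alone. Because the genes were chosen with this contrast known, nothing is read from that count. Of these 9 probes, 5 were higher and 4 lower in Dusp8-deficient arrays. With 1 array left out, between 3 and 5 of the 9 were higher.

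**Figure D2:**
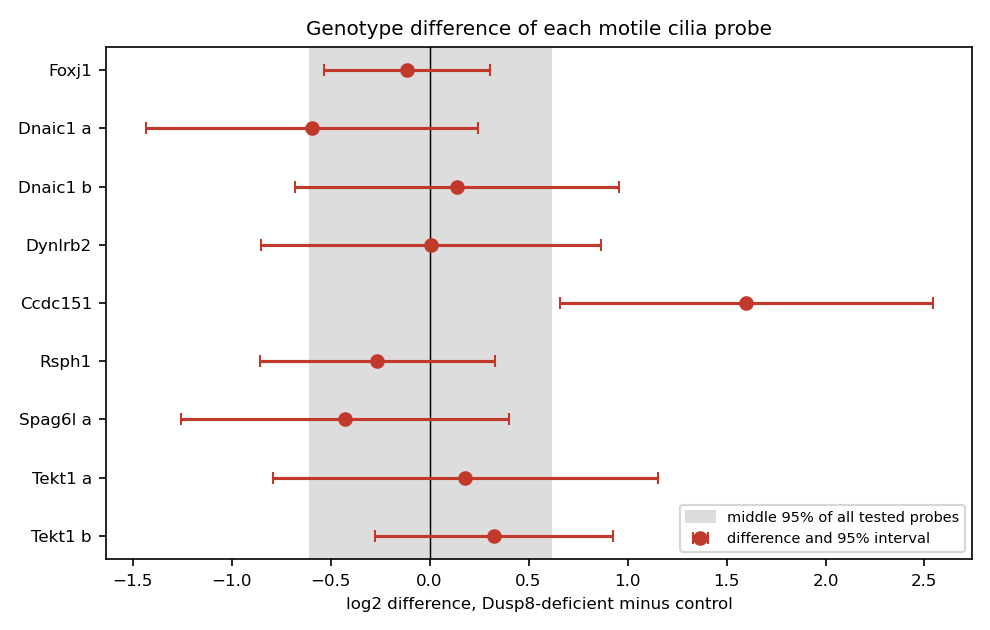
Log2 difference, Dusp8-deficient minus control (horizontal axis), of the 9 tested probes, with 95% intervals from the limma fit and a grey band for the middle 95% of all tested probes, from -0.61 to 0.61. Ccdc151 at 1.60 lies outside the band, and the other 8 lie inside it. Because that difference took part in the choice of the gene, neither its place nor its interval is a test.

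Foxj1, the forkhead regulator that commits cells to motile cilia, was read close to the background. Its signal was 12, 16, 9 and 6 units in Dusp8-deficient arrays (ko_108, ko_125, ko_148, ko_168), against 13, 13 and 11 units in controls (wt_136, wt_145, wt_177). The lowest values were in ko_168, where it was not detected, and ko_148, and all 3 controls lay within the Dusp8-deficient range. The normalised means were 4.72 ± 0.17 (SD, n = 4) in Dusp8-deficient arrays and 4.83 ± 0.03 (SD, n = 3) in controls. The log2 difference of Foxj1 was -0.11 (SE 0.19, 95% interval -0.53 to 0.31), or -0.19 without ko_108. With the offset added, a fold change this close to the background understates the change in signal.

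The other dynein genes of the set showed no shift that both their probes or all arrays shared. Dynlrb2, a light chain of the roadblock class, read 130, 94, 281 and 168 units in Dusp8-deficient arrays, against 91, 231 and 146 units in controls. High and low arrays occurred in both groups, with ko_148 and wt_145 high, and ko_125 and wt_136 low. Its group means were 7.39 ± 0.61 (SD, n = 4) in Dusp8-deficient arrays and 7.38 ± 0.65 (SD, n = 3) in controls, a log2 difference of 0.00 (SE 0.38, 95% interval -0.85 to 0.86).

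Dnaic1, an intermediate chain of the outer dynein arm, was read by a pair of probes that differed. Its brighter probe, ILMN_2744879, gave 54, 30, 71 and 88 units in Dusp8-deficient arrays, against 35, 39 and 73 units in controls, with a log2 difference of 0.14 (SE 0.37). The dimmer probe, ILMN_2694884, gave 9, 21, 21 and 4 units in Dusp8-deficient arrays, against 12, 17 and 61 units in controls, with a log2 difference of -0.60 (SE 0.38). The control wt_177 was high on both probes, while ko_168 was the highest array on the brighter probe and the lowest, not detected, on the dimmer one. Without wt_177 the dimmer probe's log2 difference was -0.09, and the probes correlated at r = 0.24 over the 7 arrays.

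The members of the radial spoke and the central pair, Rsph1 and Spag6l, had lower means in Dusp8-deficient arrays, within a spread in which the groups overlapped. Rsph1, a protein of the radial spoke head, read 168, 220, 430 and 214 units in Dusp8-deficient arrays, against 259, 284 and 299 units in controls. Of the Dusp8-deficient arrays, ko_148 was the highest of all 7 after normalisation and the other 3 were the lowest. The means were 7.99 ± 0.44 (SD, n = 4) in Dusp8-deficient arrays and 8.26 ± 0.22 (SD, n = 3) in controls, with a log2 difference of -0.26 (SE 0.27) that was -0.49 without ko_148. Spag6l, which encodes a central pair protein that male fertility and ciliary motility need, read 10, 30, 52 and 58 units on ILMN_2855928 in Dusp8-deficient arrays, against 30, 55 and 59 units in controls. Its lowest value was in ko_108, and the log2 difference of -0.43 (SE 0.37) shrank to -0.17 without that array. A further Spag6l probe, ILMN_2855931, was not detected in any array and gives no level.

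Tekt1, a tektin of the filaments inside the doublet microtubules, was also read by a pair of probes, each set by a single and different array. On ILMN_1239718 it read 59, 10, 12 and 5 units in Dusp8-deficient arrays, against 9, 22 and 9 units in controls, with ko_108 far above the others. On ILMN_2700097 it read 15, 21, 20 and 43 units in Dusp8-deficient arrays, against 13, 16 and 15 units in controls, with ko_168 far above the others. The log2 differences were 0.18 (SE 0.44) and 0.32 (SE 0.27). The first was -0.27 without ko_108 and the second 0.09 without ko_168. Over the 7 arrays the 2 probes correlated at r = -0.22.

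Compared over arrays, the 7 measured genes did not form 1 pattern. Among the 21 pairs of genes, each by its brightest tested probe, Pearson's r over the 7 arrays averaged 0.07, with 11 pairs above and 10 below 0. These are descriptions over few arrays that share a dissection and a signal depth. Dynlrb2 correlated at 0.63 with Rsph1, at 0.60 with Dnaic1 and at 0.54 with Spag6l, or 0.70, 0.60 and 0.79 without ko_108. Rsph1 correlated at 0.59 with Spag6l, or 0.46 without ko_108, and Dnaic1 at 0.50 with Spag6l, or 0.87. Ccdc151 ran the other way, at -0.46 with both Rsph1 and Spag6l, or -0.31 and -0.11 without ko_108. Foxj1 was negative with all 6 others, down to -0.72 with Tekt1, though its r of -0.02 with Ccdc151 was 0.63 for deviations from the group means, and its r with Rsph1 was 0.09 without ko_108. Set against the mean of the 57 other motile cilia genes described below, Spag6l (r = 0.84) and Rsph1 (r = 0.66) followed it most closely. Dynlrb2 stood at 0.31, Tekt1 at 0.13 and Dnaic1 at 0.12, while Ccdc151 (-0.37) and Foxj1 (-0.50) were negative. On the normalised scale, array ko_108 was the lowest for that mean, at a deviation of -0.26, and for Spag6l, and the highest for Ccdc151 and Foxj1. The r values with that mean were not computed without ko_108, so they may rest on it. Over the 21 pairs of members, the mean r was 0.12 without ko_108 and 0.10 for deviations from the group means.

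**Figure D3:**
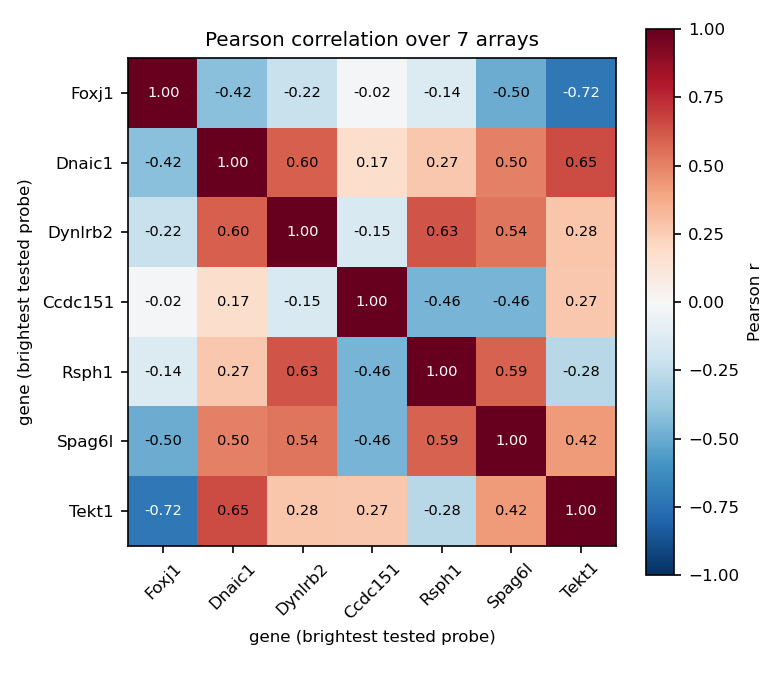
Pearson correlation over the 7 arrays between the normalised log2 levels of the 7 measured genes, each by its brightest tested probe, with genes on both axes and colour from -1 to 1. Dynlrb2, Dnaic1 and Spag6l are positive with each other, from 0.50 to 0.60, while Ccdc151 is at -0.46 with Rsph1 and Spag6l.

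The tested probes of other genes most like the mean standardised profile of the 7 genes were Gpr146 (r = 0.96), Glyr1, Mt1, Prrc2b, 4930453N24Rik, Kansl3, Vwa7, Klhl21, Tceal3 and Rplp0 (r = 0.94), over 7 arrays. None of the 100 most similar probes belonged to the other motile cilia genes, which hold 0.527% of the probes compared, or to the lists of regulators or of intraflagellar transport. With 14055 probes and 7 arrays, high correlations arise in number without any relation.

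Other genes of the motile axoneme were then read from the same fit. Of 147 further genes listed, 91 were on the array and 57 were tested. None passed in either direction (limma with Benjamini-Hochberg adjustment), while 24 were higher and 33 lower, and 2 had an unadjusted p below 0.05, against 4.81% of all tested probes. The median log2 difference was -0.08, beside 0.00 for all tested probes, and it was 0.00 without ko_108. On the normalised scale the groups did not overlap for 2 of the 57, Stk36 and Ropn1l (Ropn1l was named after its values were seen), against 5.57% of all tested probes. On the deposited signal both overlapped, and Ropn1l met the filter through 3 Dusp8-deficient arrays, with detection in 0 of 3 controls.

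By part of the axoneme, 5 of 17 tested genes of the dynein arms, their assembly and docking were higher and 12 lower. The median was -0.19, or -0.02 without ko_108 (7 higher and 10 lower). Drc3, at -0.34, was counted in this list and not with the nexin link, so the split by part is approximate. Dnaaf3, a cytoplasmic assembly factor of dynein arms, had 2, 43, 18 and 55 units in Dusp8-deficient arrays, against 46, 57 and 102 units in controls, and a log2 difference of -1.08 (SE 0.43). Its lowest value was in ko_108, where it was not detected, and the difference was -0.76 without that array. Ccdc114, which works with Ccdc151 in the docking complex and was picked for that reason after its values were seen, read -0.31 (SE 0.45). Of 14 genes of the radial spokes, the central pair and the nexin link, 6 were higher and 8 lower (median -0.04), or 7 and 7 without ko_108 (median 0.01). Stk36, a kinase needed for central pair assembly, read 25, 31, 28 and 10 units in Dusp8-deficient arrays, against 11, 10 and 2 units in controls, with a log2 difference of 0.64 (SE 0.23). Rsph9, a further radial spoke head gene, stood at -0.58 (SE 0.27) and Ccdc39, which sets the spacing of spokes and inner arms, at -0.48 (SE 0.25), or -0.31 without ko_108. Genes of the doublets and other axonemal proteins split into 13 higher and 13 lower (median -0.03, or 0.04 without ko_108), with Cfap65 at 0.72 (SE 0.33) and Ccdc181 at 0.64 (SE 0.32). Each gene named here had an adjusted p of 0.996 (limma), and none passed.

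**Figure D4:**
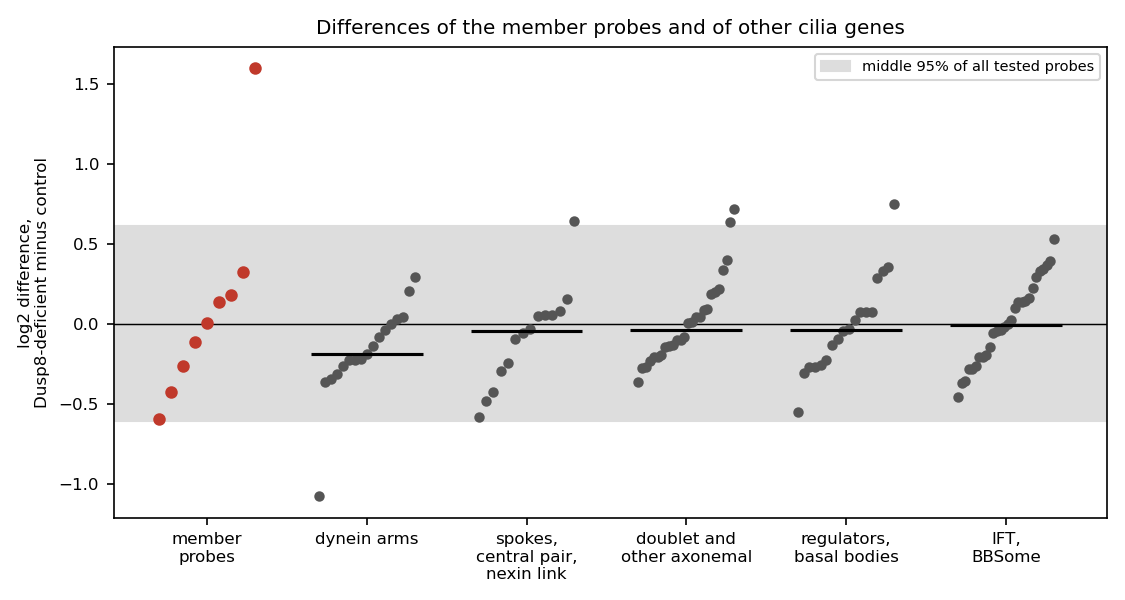
Log2 difference, Dusp8-deficient minus control (vertical axis), of the 9 tested member probes (red) and of the tested genes of 5 cilia lists (grey), sorted within each list, with black lines at list medians and a grey band for the middle 95% of all tested probes. Ccdc151 at 1.60 and Dnaaf3 at -1.08 lie farthest from 0, and the list medians run from -0.19 to -0.01.

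Regulators of motile ciliogenesis and of basal body amplification gave 8 higher and 10 lower among 18 tested genes, with none past the threshold and a median of -0.03. Cep83, a protein of the distal appendages of centrioles, read 0.75 (SE 0.48), but 0.26 without ko_108, where it had its highest level, and Rfx1 read 0.35 (SE 0.23). Myb, which acts early in multiciliated cells, read 10, 5, 11 and 13 units in Dusp8-deficient arrays, against 6, 2 and 5 units in controls. Its probe met the filter through 3 Dusp8-deficient arrays, with detection in 0 of 3 controls, and the groups overlapped. Fam216b read -0.55 (SE 0.40), or -0.35 without ko_108, E2f4, which helps to start centriole amplification, -0.26 (SE 0.27) and Rfx5 -0.23 (SE 0.26).

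Intraflagellar transport and BBSome genes, which motile and primary cilia share, split into 14 higher and 14 lower of 28 tested, with none past the threshold and a median of -0.01 that was 0.12 without ko_108. The higher genes of smallest p were Ift52 at 0.53 (SE 0.24), Ift80 at 0.34 (SE 0.23) and Ift20 at 0.33 (SE 0.20). On the lower side were Bbs5, a BBSome subunit, at -0.45 (SE 0.25), and Cluap1 at -0.35 (SE 0.30), or -0.30 and -0.18 without ko_108. The kinesin motor gene Kif3a was at -0.28 (SE 0.24). A dimmer Kif3a probe read 0.52 (SE 0.25), and a further tested Ift20 probe 0.29 (SE 0.20).

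Array ko_108 was the lowest for 20 of the 57 other motile cilia genes (35.1%), while it was the lowest for 20.3% of all tested probes. Its mean deviation for these genes was -0.26 log2 units, and the other arrays lay between -0.06 and 0.11. In the same array the oligodendrocyte markers (11 tested of 13) summed to 7125 normalised units. The other Dusp8-deficient arrays had 2300 to 3424 units and the controls 2142 to 3167 units. The tanycyte markers (14 tested of 18) summed to 655 units in ko_108, to 1332 to 1482 units in the remaining arrays of its genotype and to 1187 to 1583 units in controls. Of these 14, 7 were lowest in ko_108, and the median deviation there was -0.34. Frzb, the brightest, was at 5.74 log2 units there, against 8.06 to 8.81 in the 6 other arrays. Dio2, Nes and Adm were detected in no array. Neuron markers summed to 1777 units in ko_108 and 2558 to 3137 units in the 6 other arrays. Of the 13 neuron markers, however, only Npy, Ghrh and Elavl4 were lowest in ko_108, and the median deviation there was 0.14. Npy was at 6.08 log2 units there, against 8.55 to 9.83 in the 6 other arrays, and Ghrh at 4.51, against 8.10 to 8.78. Pituitary markers (6 tested of 11) summed to 616 units in ko_108 and 751 to 1314 units elsewhere. Chga made up most of these sums, and it was lower in ko_168, at 8.81 log2 units, than in ko_108, at 9.02. Of the 6, 4 were lowest in ko_108 (Fshb tied with ko_168), but not Chga or Pomc. Prl, Lhb and Pitx1 were detected in no array. Astrocyte markers summed to 6103 units in ko_108 and 4350 to 5088 units elsewhere. The ependymal genes outside the axoneme were divided in ko_108, with 3 of 11 lowest and 5 highest there and a mean deviation of 0.04. Their sum was 1601 units in ko_108, 2145 to 2483 units in the other Dusp8-deficient arrays and 1558 to 2029 units in controls. The intraflagellar transport and BBSome genes were lowest in ko_108 in 10 of 28 cases (35.7%). On the normalised scale, Spag6l was at its lowest and Ccdc151 and the first Tekt1 probe at their highest in ko_108. The part of these marker levels in the cilia values was not tested, and in pieces of tissue fewer ependymal cells and less RNA per cell cannot be told apart.

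**Figure D5:**
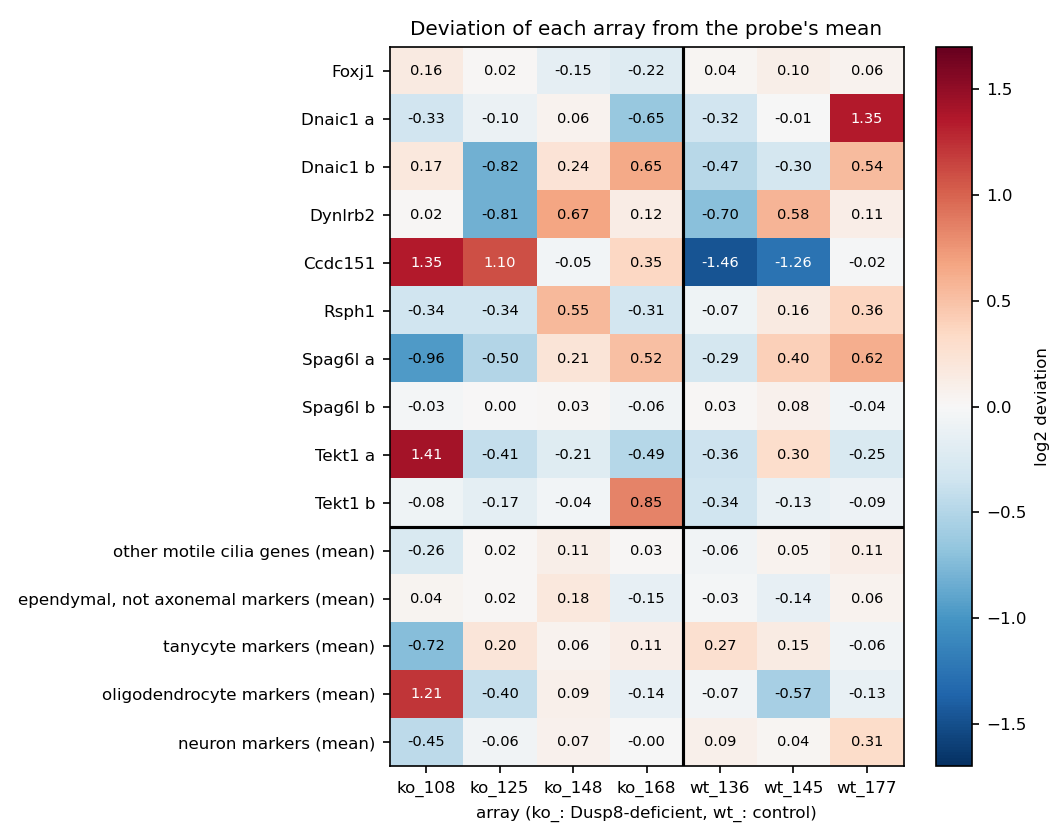
Deviation of each array from the mean of the 7 arrays (log2 units, colour and printed values), for the 10 probes above the black line and for the mean of 5 gene lists below it, Dusp8-deficient arrays left of the vertical line. Array ko_108 is at 1.21 for oligodendrocyte markers and -0.72 for tanycyte markers, and is high for Ccdc151 and Tekt1 a and low for Spag6l a.

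Ependymal genes outside the axoneme were read beside the members. Of 16 named, 12 were on the array and 11 were tested, and their summed level was 1601 to 2483 units in Dusp8-deficient arrays and 1558 to 2029 units in controls, with overlap. Of these, 6 were higher and 5 lower, and none passed (limma). The brightest were Hdc, the enzyme that makes histamine, and Hspa2, a chaperone, which together made up most of these sums. Neither is made by ependymal cells alone, so the sums cannot check the ependymal label. Of the choroid plexus markers, whose epithelium also carries cilia, 5 of 17 were tested, with sums of 991 to 1123 units in Dusp8-deficient arrays and 1003 to 1112 units in controls. Kl made up most of these sums, with 681 to 944 units of deposited signal in Dusp8-deficient arrays and 678 to 958 units in controls. Kl, Clic6 and Ttr, the transthyretin gene, were detected in all 7 arrays, while Folr1, Otx2, Sostdc1, F5 and Tmem72 were detected in none. Of the members, Rsph1 and Dynlrb2 were well above the background in all 7 arrays, while their regulator Foxj1 stood near it.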

How the data were processed

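Total RNA, amplified and biotin-labelled, was read on Illumina bead arrays, per the labels' protocols. The authors deposited intensities that were not normalised, per the file headers, and whole numbers below 0 show that a background had been subtracted. Detection p-values were deposited beside them by the authors. For both, the sources used here name no software. The signal columns name the genotype and carry no replicate number. A table of intensities processed by the authors, quantile-normalised from its values, with the constant that lifts it above 0 unknown, was used only as an alternative.

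The neqc function (limma 3.58.1, R 4.3.3) corrected the background, added an offset of 16, quantile-normalised the arrays and took log2. Probes with a detection p below 0.05 in at least 3 of 7 arrays were tested, 14067 of 25697. Of all probes, 1719 had no gene name here. The limma fit (lmFit, eBayes) gave Dusp8-deficient minus control differences per probe, with two-sided p-values and Benjamini-Hochberg adjustment over all tested probes and a threshold of 0.05. The steps were tested on simulated data. A gene of a list was read by its brightest tested probe. Marker sums add up normalised levels on the linear scale, offset included. The number of arrays limits the precision, and p-values measure only the spread between these samples.

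The members and lists were chosen with earlier results of these data known. Named genes are the members, Dusp8, the 3 genes of smallest p per direction in each of 3 cilia lists, the 10 probes most like the members' profile, and up to 2 bright genes of a marker list. Alternatives changed background correction, normalisation, filter, variance model, array weights and values, added a replicate block, or left out each array. Lists and named genes without ko_108 were added after the data were seen.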

Additional observations from a re-analysis of the deposited data

Results flagged for a closer look

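By Dixon's criterion, 1 Dusp8-deficient array lay apart from the remaining 3 in 6 of 41 groups examined, where chance gives about 1 in 20, or 2. The groups share the same arrays and some values lie near the background, so no excess over chance is read from this count. The 3 controls were too few to examine. On normalised log2 values, Rsph1 was at 8.65 in ko_148, against 7.76 to 7.79 in the remaining 3 of that genotype, which also give the ranges below. The first Tekt1 probe was at 6.38 in ko_108, against 4.47 to 4.75, and the second at 5.99 in ko_168, against 4.97 to 5.10. Rsph9 was at 5.37 in ko_168, against 4.80 to 4.86. In ko_108 the mean deviation was -0.33 for the dynein arm genes, against -0.01 to 0.05, and -0.72 for the tanycyte markers, against 0.06 to 0.20.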

How the results depend on the processing

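Over 19 alternatives, Ccdc151, Foxj1, Rsph1, Spag6l, the dimmer Dnaic1 probe and the second Tekt1 probe kept their direction. Dynlrb2 changed sign in 6, the brighter Dnaic1 probe in 4 and the first Tekt1 probe in 1. Without further background correction Ccdc151 was 3.03 and Foxj1 -0.33, the median of the other motile cilia genes was -0.19, and 2 probes passed in all, neither of them Dusp8 (limma adjusted p = 0.0962). Without a filter on dim probes 0 of 25697 passed (limma, with 1204 at an unadjusted p below 0.05). With 1 array left out, 0 to 1 probes passed (0 without ko_148, ko_168, wt_136, wt_145 or wt_177) and 3 to 5 of the 9 member probes were higher (3 without ko_108, ko_168 or wt_136). The median of the other motile cilia genes ran from -0.11 to 0.00, and the mean correlation between members from -0.01 to 0.19. The number passing among the other motile cilia genes was 0 under every alternative run. With the replicate number as a block on replicates 1 to 3 of the processed values, 0 probes passed, against 1 on the same 6 arrays without a block, and 3 member probes were higher in both fits. Deviations of same-numbered samples from their group means correlated at r = -0.07, 0.09 and -0.02 for replicates 1, 2 and 3. Only for replicate 2 was the highest of these matches with its own number. With so few samples this cannot decide whether same-numbered samples share more than a number. Signal near the background limits Foxj1, Tekt1, the dimmer Dnaic1 probe and the control level of Ccdc151.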
